A study of Mus musculus with 4 samples.

Results

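The nuclear genes of the mitochondrial respiratory chain were compared between knockdown and control libraries of mouse E14 embryonic stem cells, complex by complex. Members were the rows of the deposited gene count table whose symbols carry the names of complex I (Nduf genes), complex II (Sdh), complex III (Uqcr and Cyc1), complex IV (Cox4 to Cox8 genes) and complex V (Atp5), without names ending in -ps. The rule found 86 of 35976 gene rows, of which 36 belonged to complex I, 4 to complex II, 10 to complex III, 19 to complex IV and 17 to complex V. Ndufa4 was counted in complex IV, of which its protein is known to be a subunit.

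The knockdown group was 2 libraries of E14 cells of the labelled strain 12910la and the labelled genotype "knocked down". In these cells a short hairpin RNA cloned in the pSuper puro vector was aimed at Lx8-SINE B2. Only the SINE B2 part of that name stands for a family of short interspersed repeats. The knockdown group was set against 2 control libraries of the same strain with the genotype label "wild type". All cells grew on gelatin in serum with LIF, a cytokine that holds mouse embryonic stem cells undifferentiated, and the labels of both groups carry the same account of transfection followed by puromycin. What vector the control cells received, how many hairpins were used and whether libraries came from separate cultures were not stated, so p-values reflect library-to-library spread only, and that spread may be technical. Titles name a batch for the knockdown libraries and none for the control libraries, so any batch effect and the effect of the hairpin cannot be told apart. No value of the target RNA itself is given here.

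The respiratory chain sits in the inner mitochondrial membrane. Complexes I and II pass electrons from NADH and succinate to ubiquinone, complex III passes them on to cytochrome c, and complex IV hands them to oxygen. Complexes I, III and IV pump protons, and complex V, the ATP synthase, lets these protons flow back to make ATP. Complexes I, III, IV and V mix proteins from nuclear genes with proteins from the mitochondrial genome, whereas complex II is wholly nuclear. Cultured embryonic stem cells in serum and LIF rely heavily on glycolysis and also respire.

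Libraries held 18592224 and 16383323 counts in the knockdown group and 19867689 and 19044832 in the control group. Members took 0.864% and 0.890% of all counts in the knockdown libraries, against 1.12% and 1.04% in the control libraries. The 9 embryonic stem cell markers examined summed to 5392 and 5883 CPM (read counts scaled to library size by TMM) in the knockdown libraries. In the control libraries they summed to 7519 and 7266 CPM. Both knockdown libraries lay below both control libraries in 2 of the 9, Tdgf1 and Dppa5a, against 24.6% of all tested genes. Tdgf1 was at 571 and 602 CPM in the knockdown libraries and 1133 and 1552 CPM in the control libraries. Dppa5a was at 664 and 1021 CPM in the knockdown libraries and 1437 and 1446 CPM in the control libraries. Pou5f1, Sox2, Nanog and Esrrb each overlapped between groups. Markers of endoderm were sparse, with the 7 genes summing to 31.6 and 22.6 CPM in the knockdown libraries and 10.0 and 13.7 CPM in the control libraries. Of the 5 tested endoderm genes, 0 were called, against 1.43% of all tested genes. Their median log2 fold change (knockdown over control) was 1.17, with 0 of the 5 below 0, against 49.5% of all tested genes. In 4 of the 5 both knockdown libraries lay above both control libraries, against 27.3% of all tested genes. At an unadjusted edgeR p below 0.05, 3 of the 5 were higher, against 11.0% of all tested genes. Summed mesoderm markers were at 21.7 and 25.7 CPM in the knockdown libraries and 15.6 and 15.0 CPM in the control libraries. Neural markers were at 112 and 93.5 CPM in the knockdown libraries and 96.1 and 100.1 CPM in the control libraries, and trophectoderm markers were at 47.4 and 88.9 CPM in the knockdown libraries and 56.9 and 66.0 CPM in the control libraries. Of all these lists, edgeR called Tdgf1, a stem cell marker, lower and Neurod1, a neural marker, higher, beside 1.43% of all tested genes. The 10 fibroblast markers summed to 34.6 and 33.3 CPM in the knockdown libraries and 32.6 and 46.0 CPM in the control libraries, with Postn and Lum at 0 in every library. The part of such cells in the results below was not tested, and in bulk RNA fewer cells of a type and less RNA per cell cannot be told apart.

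Most nuclear respiratory chain transcripts lay lower in the knockdown libraries by a small margin, and no member passed edgeR's test over all genes. The log2 fold change (knockdown over control) was below 0 in 73 of 82 tested members, against 49.5% of all tested genes, and its median was -0.30, against 0.01 over all 16209 tested genes. Both knockdown libraries lay below both control libraries in 52 of the 82 members, where this was so for 24.6% of all tested genes. They lay above both control libraries in 1 member, Ndufa12, against 27.3% of all genes. At a Benjamini-Hochberg adjusted p below 0.05 in edgeR's quasi-likelihood test, 0 members were called, and 1.43% of all genes were called, 0.555% lower and 0.876% higher. At an unadjusted p below 0.05, 17 of the 82 members were lower, against 8.58% of all genes, and 0 were higher, against 11.0% of all genes. The smallest adjusted p of a member in the edgeR test was 0.0876, that of Ndufb4. DESeq2 called 5 members lower (Ndufb4, Ndufa7, Cox7b, Cox7a1 and Atp5c1) while it called 3.02% of all genes lower. Limma-voom called 0 members, while it called 1.49% of all genes in either direction. With no filter on low counts, edgeR called 5 members lower (Ndufb4, Cox7b, Cox7a1, Cox4i2 and Atp5c1), beside 2.72% of all genes.

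**Figure D1:**
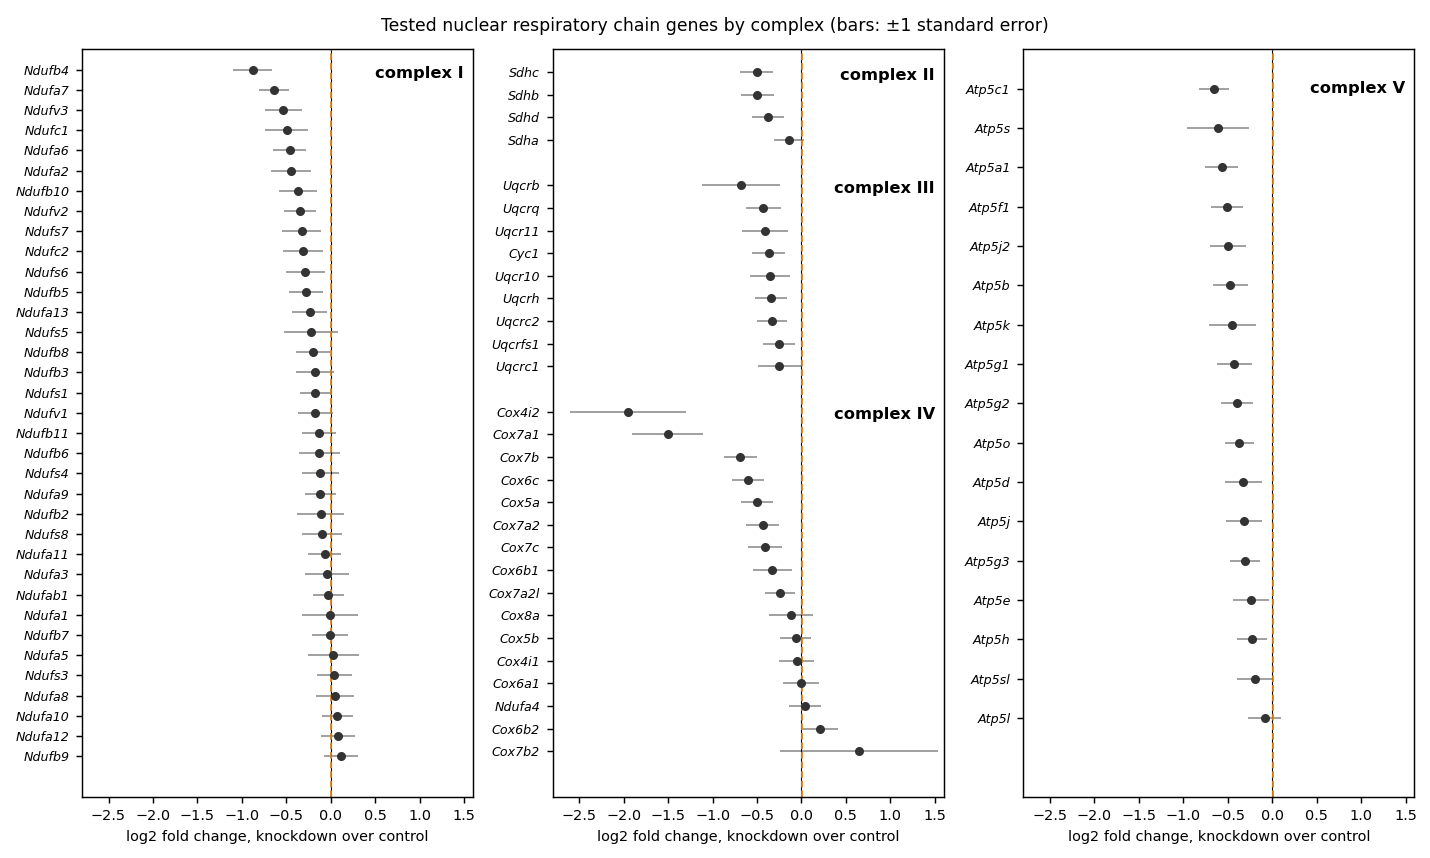
Log2 fold change (knockdown over control) of the tested members, all but 1 of the 82, grouped by complex, with bars of 1 standard error to each side from the edgeR fit. Complex V and complex III members all lie left of 0, whereas complex I members run from -0.88 for Ndufb4 to 0.12 for Ndufb9.

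By complex, the median log2 fold change was -0.17 over 36 complex I genes, -0.44 over 4 complex II genes, -0.35 over 9 complex III genes, -0.28 over 16 complex IV genes and -0.39 over 17 complex V genes. Values below -0.32, the lower quartile of all tested genes, were found in 9 of 36 genes of complex I, 3 of 4 of complex II, 7 of 9 of complex III, 8 of 16 of complex IV and 11 of 17 of complex V. Summed over its members, complex I stood at 1686 and 1767 CPM in the knockdown libraries, against 2093 and 1851 CPM in the control libraries, so that the knockdown mean was 87.6% of the control mean. Complex II summed to 437 and 448 CPM in the knockdown libraries and 548 and 534 CPM in the control libraries, or 81.8% of the control mean. For complex III the sums were 822 and 887 CPM in the knockdown libraries and 1190 and 952 CPM in the control libraries, or 79.8%. Complex IV summed to 1445 and 1728 CPM in the knockdown libraries and 2003 and 1704 CPM in the control libraries, or 85.6%, and here the groups overlapped. Complex V, at 4018 and 4036 CPM in the knockdown libraries and 5902 and 5209 CPM in the control libraries, stood at 72.5% of the control mean.

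**Figure D2:**
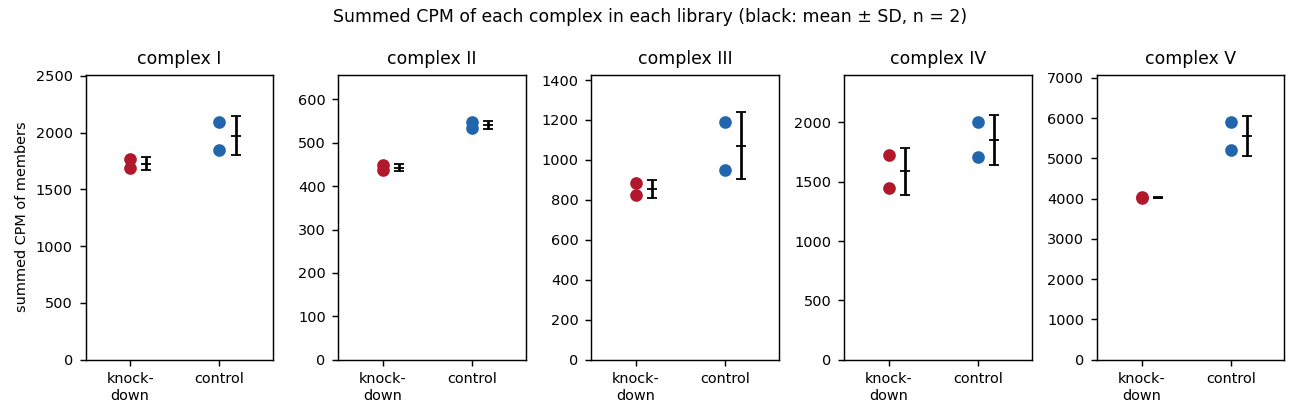
Summed CPM of the members of each complex in each library, with knockdown libraries left and control libraries right in each panel and the mean ± SD of the 2 libraries beside them. Each vertical axis starts at 0. The groups are apart for complexes I, II, III and V and overlap for complex IV.

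Within a library, the split of respiratory chain transcripts between complexes does not depend on how libraries are scaled. Complex V made up 47.8% and 45.5% of member CPM in the knockdown libraries, against 50.3% and 50.8% in the control libraries. Complex I made up 20.1% and 19.9% in the knockdown libraries, against 17.8% and 18.1% in the control libraries. Both splits kept the groups apart, and with 2 libraries against 2 an exact two-sided permutation test cannot go below p = 0.333. Without the abundant Atp5a1 and Atp5b, complex V was at 22.7% and 21.9% of the remaining member CPM in the knockdown libraries and at 23.8% and 24.4% in the control libraries.

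The 2 control libraries also differed from each other. Control replicate 2 lay below control replicate 1 in 64 of 82 members, with a median log2 ratio of -0.21, where the median over all tested genes was 0.00 and 8079 of 16209 genes lay that way. Between the knockdown libraries (replicate 2 over replicate 1) this median was 0.09 over the members. Without control replicate 1, the median log2 fold change was -0.05 for complex I, -0.39 for complex II, -0.20 for complex III, -0.18 for complex IV and -0.23 for complex V. With control replicate 2 left out, the medians were -0.33, -0.45, -0.58, -0.49 and -0.52 for complexes I to V in turn. All 5 medians stayed below 0 in each fit that left out 1 library, and complex I came closest to the median of all genes.

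**Figure D3:**
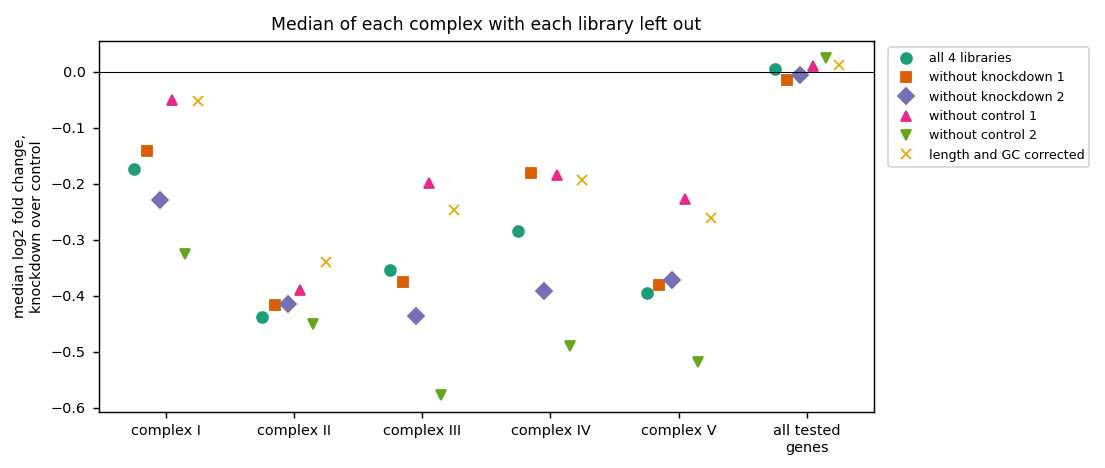
Median log2 fold change (knockdown over control) of the tested members of each complex and of all tested genes, in the fit of all 4 libraries, with each library left out, and with transcript length and GC content corrected for. Leaving out control replicate 1 gives -0.05 for complex I and leaving out control replicate 2 gives -0.33.

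Over all genes, but not within the members, short transcripts had lower values. Most members have short mRNAs, and the 1373 tested genes with a transcript under 1000 nt had a median log2 fold change of -0.12, against 0.01 for the 13747 longer ones. Among the members the median was -0.30 for the 50 short ones and -0.31 for the 32 longer ones. Among the 212 tested genes that were both under 1000 nt and at a mean of at least 50 CPM, the median was -0.26, and the 27 members in that group had a median of -0.32. Once length and GC content were corrected for, the medians were -0.05 for complex I, -0.34 for complex II, -0.25 for complex III, -0.19 for complex IV and -0.26 for complex V. The part of transcript length in the lower values was not tested beyond this.

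Complex I, the NADH dehydrogenase, had the median nearest to that of all genes, and it also held the member with the smallest p. Its 7 catalytic core genes, which carry the flavin and the iron-sulphur clusters, had a median log2 fold change of -0.17, and its 29 supernumerary genes had one of -0.14. Ndufv1, whose protein binds NADH, was at 123 and 119 CPM in the knockdown libraries and 158 and 116 CPM in the control libraries. Ndufs1, which holds iron-sulphur clusters, was at 98.4 and 100.03 CPM in the knockdown libraries and 103 and 121 CPM in the control libraries. The log2 fold changes of Ndufv1 and Ndufs1 were -0.17 and -0.17, with standard errors of 0.20 and 0.18, so each was about as large as its standard error.

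Ndufb4, a membrane arm subunit gene on chromosome 16 from 37647602 to 37654368 (mm10), stood out within complex I. It was at 29.3 and 34.9 CPM in the knockdown libraries, against 66.6 and 51.4 CPM in the control libraries. The log2 fold change was -0.88 (standard error 0.22, edgeR adjusted p = 0.0876). The groups did not overlap, and Ndufb4 was called in the edgeR fit without control replicate 2 at -1.10, in which 1.10% of all genes were called lower. Ndufa7, a matrix arm subunit gene on chromosome 17 from 33824572 to 33838316, was at 58.9 and 64.4 CPM in the knockdown libraries and 97.7 and 94.1 CPM in the control libraries. That gave a fitted log2 change of -0.64 (standard error 0.17, edgeR adjusted p = 0.104). Ndufv3, a small subunit of the NADH-binding module, was at 23.6 and 25.3 CPM in the knockdown libraries and 37.2 and 33.6 CPM in the control libraries, a log2 fold change of -0.53. At the other end, Ndufb9 was at 51.5 and 63.0 CPM in the knockdown libraries and 51.3 and 54.4 CPM in the control libraries, a log2 fold change of 0.12 (standard error 0.20). Ndufa12 was at 37.6 and 37.3 CPM in the knockdown libraries and 35.8 and 35.0 CPM in the control libraries, and Ndufa10 was at 107 and 112 CPM in the knockdown libraries and 113 and 95.1 CPM in the control libraries. For Ndufa12 the groups were apart by a narrow margin, while those of Ndufb9 and Ndufa10 overlapped.

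The promoters of Ndufb4 and Ndufa7 are shown because these genes had the lowest values of complex I and both hold a match to the binding motif of NRF1, a transcription factor known to act at many respiratory chain genes. The sequences run from 250 bases before to 50 bases after the start listed for the gene's promoter in RefSeq GRCm38.p6, 5′ to 3′ on the gene's strand, and distances are counted from that listed start. Capitals mark matches, on either strand, to CGCANGCG (NRF1) or to ACGTG (the core recognised by the hypoxia factor HIF). The Ndufb4 promoter (chr16:37654319-37654618, minus strand) held 3 NRF1 matches, which began 190, 78 and 21 bases before the start. The Ndufa7 promoter (chr17:33824322-33824621, plus strand, 1 of 2 listed for the gene) held the palindrome that matches ACGTG on both strands, 72 bases before the start, and an NRF1 match 7 bases before the start. Of 32 complex I genes with a promoter, 10 held an NRF1 match. Among these were Ndufa12, Ndufa8 and Ndufa5, with log2 fold changes of 0.08, 0.04 and 0.03, and the rest had negative values. Ndufv3, at -0.53, held none.
Ndufb4: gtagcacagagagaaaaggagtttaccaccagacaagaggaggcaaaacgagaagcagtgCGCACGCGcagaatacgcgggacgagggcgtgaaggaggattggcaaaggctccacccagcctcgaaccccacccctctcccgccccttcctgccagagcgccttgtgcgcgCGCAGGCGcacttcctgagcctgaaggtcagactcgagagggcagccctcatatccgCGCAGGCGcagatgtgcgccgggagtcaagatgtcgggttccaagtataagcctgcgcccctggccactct
Ndufa7: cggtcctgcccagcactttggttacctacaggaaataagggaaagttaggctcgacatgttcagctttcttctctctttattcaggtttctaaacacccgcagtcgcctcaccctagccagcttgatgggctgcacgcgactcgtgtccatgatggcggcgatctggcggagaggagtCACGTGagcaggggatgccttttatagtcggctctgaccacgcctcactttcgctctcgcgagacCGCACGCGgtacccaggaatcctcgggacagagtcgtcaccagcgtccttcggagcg

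Complex II, the succinate dehydrogenase, had all 4 of its genes lower in both knockdown libraries than in both control libraries, by unequal amounts. This was so for 24.6% of all tested genes. Sdha, whose protein carries the flavin, was at 236 and 245 CPM in the knockdown libraries and 269 and 260 CPM in the control libraries, a log2 fold change of -0.14 (standard error 0.16). Sdhb, the iron-sulphur subunit gene on chromosome 4 from 140961271 to 140979198, was at 50.8 and 46.9 CPM in the knockdown libraries and 72.1 and 65.6 CPM in the control libraries. In edgeR its value came to -0.49 (standard error 0.18, edgeR adjusted p = 0.193). Sdhc and Sdhd encode the membrane anchor that holds the haem. Sdhc was at 64.5 and 69.0 CPM in the knockdown libraries and 104 and 85.0 CPM in the control libraries (edgeR adjusted p = 0.191), and Sdhd was at 86.3 and 87.6 CPM in the knockdown libraries and 102 and 124 CPM in the control libraries (edgeR adjusted p = 0.29). None of the 4 genes was called, against 1.43% of all tested genes.

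Complex III, the cytochrome bc1 complex, had 9 tested members, all with a log2 fold change below 0, against 49.5% of all tested genes. In 6 of them both knockdown libraries lay below both control libraries, against 24.6% of all tested genes. Cyc1, which encodes the haem protein cytochrome c1, was at 159 and 148 CPM in the knockdown libraries and 221 and 176 CPM in the control libraries, a log2 fold change of -0.37 (standard error 0.18). Uqcrfs1, the Rieske iron-sulphur protein gene, was at 99.9 and 117 CPM in the knockdown libraries and 139 and 119 CPM in the control libraries. The core protein gene Uqcrc1 was at 226 and 266 CPM in the knockdown libraries and 357 and 227 CPM in the control libraries, so the groups overlapped. Its partner Uqcrc2 was at 113 and 107 CPM in the knockdown libraries and 131 and 145 CPM in the control libraries, and these groups did not overlap. Of the small subunit genes, Uqcrq was at 74.2 and 80.7 CPM in the knockdown libraries and 119 and 89.3 CPM in the control libraries. Uqcr11 was at 23.2 and 24.3 CPM in the knockdown libraries and 37.8 and 25.2 CPM in the control libraries. In both of these genes control replicate 1 was the highest library and control replicate 2 lay close to the knockdown libraries. The reverse held for Uqcrb, another small subunit gene, which had the lowest fitted value of the complex.

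Uqcrb was at 13.8 and 13.8 CPM in the knockdown libraries and 11.7 and 32.5 CPM in the control libraries. Its log2 fold change of -0.68 (standard error 0.44), thus rested on control replicate 2. Without that library it was 0.18, and without control replicate 1 it was -1.24 and called (edgeR adjusted p = 0.0487), in a fit that called 1.15% of all genes lower. The pseudogene row Uqcrh-ps1, which the rule takes in, had 0 counts in every library and was not tested.

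Complex IV, the cytochrome c oxidase, was the most mixed of the complexes. Of its 11 ubiquitous nuclear subunit genes, 10 had a log2 fold change below 0, against 49.5% of all tested genes. Yet the values ran from -0.69 for Cox7b to 0.04 for Ndufa4, with a median of -0.33. Cox7b, a small subunit gene on chromosome X from 106015700 to 106022450, was at 88.9 and 116 CPM in the knockdown libraries and 166 and 164 CPM in the control libraries (edgeR adjusted p = 0.107). Cox5a, a subunit gene on the matrix side, was at 72.5 and 87.5 CPM in the knockdown libraries and 110 and 116 CPM in the control libraries, and its log2 fold change was -0.50 (edgeR adjusted p = 0.181). Its partner Cox5b was at 111 and 130 CPM in the knockdown libraries and 123 and 129 CPM in the control libraries, a log2 fold change of -0.06 (standard error 0.17). Cox5a was therefore apart between groups and Cox5b was not, although a difference between these genes was not tested. Cox8a, at 148 and 195 CPM in the knockdown libraries and 229 and 145 CPM in the control libraries, and Ndufa4, at 125 and 157 CPM in the knockdown libraries and 141 and 133 CPM in the control libraries, overlapped between groups. Cox7a2l, which encodes the factor that ties complex III to complex IV in supercomplexes, was at 95.1 and 108 CPM in the knockdown libraries and 118 and 122 CPM in the control libraries.

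Several complex IV subunits come in alternative isoforms, and here the values differed most. Cox4i1, the ubiquitous form of subunit 4, was at 229 and 270 CPM in the knockdown libraries and 293 and 225 CPM in the control libraries, a log2 fold change of -0.05 (standard error 0.20). Cox4i2, its lung form and a HIF target in cells short of oxygen, was scarce, with 18 and 5 counts (0.942 and 0.304 CPM) in the knockdown libraries and 34 and 60 counts (1.80 and 3.11 CPM) in the control libraries. Its log2 fold change was -1.95 (standard error 0.65, edgeR adjusted p = 0.157), and it ranged from -2.99 to -1.37 when 1 library was left out. Cox7a1, the heart and muscle form of subunit 7a on chromosome 7 from 30184171 to 30186030, had 38 and 32 counts (1.99 and 1.95 CPM) in the knockdown libraries and 101 and 113 counts (5.34 and 5.86 CPM) in the control libraries. The log2 fold change was -1.51 (standard error 0.40, edgeR adjusted p = 0.0985), and it ranged from -1.57 to -1.49 when 1 library was left out. Cox7a2, the ubiquitous form, was at 46.9 and 47.5 CPM in the knockdown libraries and 67.6 and 60.1 CPM in the control libraries, a log2 fold change of -0.44 (standard error 0.19). Per kilobase of transcript, Cox7a1 made up 6.64% and 6.43% of the sum of both genes in the knockdown libraries, against 11.7% and 14.1% in the control libraries.

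Subunit 6b showed the opposite order. Cox6b2, known as a testis form, was at 47.5 and 56.5 CPM in the knockdown libraries and 48.0 and 41.8 CPM in the control libraries, while the ubiquitous Cox6b1 was at 49.4 and 59.0 CPM in the knockdown libraries and 78.5 and 57.6 CPM in the control libraries. Per kilobase of transcript, Cox6b2 made up 51.8% and 51.7% of the sum of both genes in the knockdown libraries and 40.6% and 44.8% in the control libraries. Both groups overlapped for each gene alone and were apart for the share, for which the exact two-sided permutation p cannot go below 0.333. Cox6a1 was at 185 and 207 CPM in the knockdown libraries and 227 and 167 CPM in the control libraries, whereas the muscle form Cox6a2 had 10 and 5 counts in the knockdown libraries and 0 and 1 in the control libraries, too few to be tested. Cox7b2, another testis form, had 34 and 14 counts in the knockdown libraries and 29 and 3 in the control libraries, and its value of 0.65 had a standard error of 0.89. Cox8c had 5 and 9 counts in the knockdown libraries and 9 and 10 in the control libraries, and Cox8b had 0 counts in every library. Neither was tested.

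**Figure D4:**
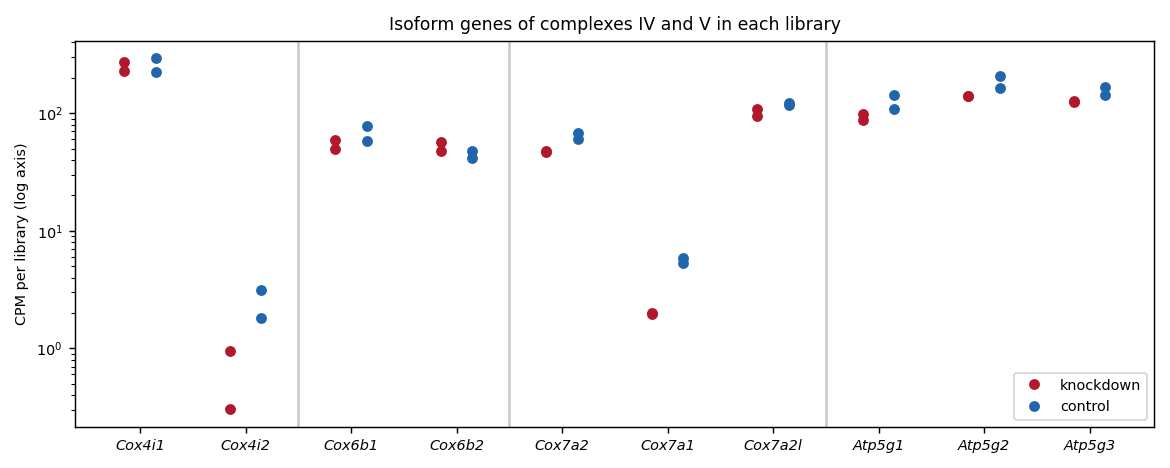
CPM in each library, on a log axis, of isoform genes of complex IV subunits 4, 6b and 7a, with the related Cox7a2l, and of the ATP synthase c-ring, with knockdown libraries left and control libraries right at each gene. Cox7a1 sits at 1.99 and 1.95 CPM in the knockdown libraries, below 5.34 and 5.86 CPM in the control libraries, while Cox4i1 overlaps between groups.

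The Cox7a1 and Cox7a2 promoters are shown as a pair because these genes encode alternative forms of 1 subunit at unequal levels. Capitals and window are as above. The Cox7a1 promoter (chr7:30183921-30184220, plus strand) held 1 match to ACGTG, which began 10 bases after the listed start. The Cox7a2 promoter (chr9:79759804-79760103, minus strand) held no match to either motif, and its listed start lies 11569 bases inside the outer bounds of the gene in RefSeq.
Cox7a1: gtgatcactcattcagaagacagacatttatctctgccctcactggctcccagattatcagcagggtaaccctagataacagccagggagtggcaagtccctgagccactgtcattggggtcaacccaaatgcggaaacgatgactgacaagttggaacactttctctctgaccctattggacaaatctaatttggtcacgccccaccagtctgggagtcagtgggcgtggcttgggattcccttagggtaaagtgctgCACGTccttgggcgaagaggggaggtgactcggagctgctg
Cox7a2: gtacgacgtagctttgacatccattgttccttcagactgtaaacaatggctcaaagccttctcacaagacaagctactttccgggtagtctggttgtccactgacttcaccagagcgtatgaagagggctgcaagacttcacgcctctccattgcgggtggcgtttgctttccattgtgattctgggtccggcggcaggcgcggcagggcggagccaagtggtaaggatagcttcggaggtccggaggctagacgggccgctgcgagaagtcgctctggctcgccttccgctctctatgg

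Complex V, the ATP synthase, held the most abundant members and the lowest summed level relative to control. All 17 tested members had a log2 fold change below 0, against 49.5% of all tested genes. In 16 of them both knockdown libraries lay below both control libraries, with Atp5l as the exception, against 24.6% of all tested genes. The catalytic F1 head is built from the products of Atp5a1, Atp5b, Atp5c1, Atp5d and Atp5e, and these 5 genes summed to 2990 and 2963 CPM in the knockdown libraries, against 4498 and 3931 CPM in the control libraries. Atp5b, the catalytic beta subunit gene on chromosome 10 from 128083307 to 128090388, was at 1835 and 1843 CPM in the knockdown libraries and 2711 and 2387 CPM in the control libraries. That gave a fitted log2 change of -0.47 (standard error 0.19, edgeR adjusted p = 0.234). Atp5a1, the alpha subunit gene, was at 896 and 838 CPM in the knockdown libraries and 1373 and 1194 CPM in the control libraries (edgeR adjusted p = 0.152).

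Atp5c1 encodes the gamma subunit, the shaft that turns inside the head, and lies on chromosome 2 from 10056030 to 10080510. It was at 135 and 149 CPM in the knockdown libraries and 232 and 213 CPM in the control libraries. Its log2 fold change of -0.65 (standard error 0.17), was the lowest of the complex (edgeR adjusted p = 0.0931). The value ranged from -0.76 to -0.59 when 1 library was left out. The stalk genes Atp5f1, Atp5h, Atp5j and Atp5o had a median of -0.34, and Atp5h was at 112 and 116 CPM in the knockdown libraries and 138 and 128 CPM in the control libraries. Of the small membrane subunits, Atp5l was at 92.0 and 111 CPM in the knockdown libraries and 117 and 98.0 CPM in the control libraries, a log2 fold change of -0.09 (standard error 0.19). Atp5s and Atp5sl carry the name of the complex and lie outside its core subunits. RefSeq lists them as Dmac2l and Dmac2, and they were counted in complex V by name alone. Atp5s, at 4.81 and 5.90 CPM in the knockdown libraries and 7.40 and 8.92 CPM in the control libraries, was scarce (standard error 0.35) around -0.61. Atp5sl was at 51.1 and 40.1 CPM in the knockdown libraries and 51.7 and 52.3 CPM in the control libraries.

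The c-ring, the rotor of the ATP synthase, is encoded by Atp5g1, Atp5g2 and Atp5g3, which give the same mature protein from different precursors. Their sum was 353 and 366 CPM in the knockdown libraries and 514 and 417 CPM in the control libraries. Atp5g1 gave 24.96% and 27.0% of that sum in the knockdown libraries and 27.6% and 26.2% in the control libraries. Atp5g2 gave 40.1% and 38.6% in the knockdown libraries and 40.2% and 39.6% in the control libraries. The shares of Atp5g3 were 35.0% and 34.4% in the knockdown libraries and 32.2% and 34.2% in the control libraries. Log2 fold changes of -0.43, -0.39 and -0.31, with standard errors of 0.19, 0.18 and 0.17, were within these errors of each other.

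The promoters of Atp5c1 and of the c-ring genes are shown because complex V members lay lower together and because the c-ring genes make 1 protein from 3 promoters. Capitals and window are as above. The Atp5c1 promoter (chr2:10080461-10080760, minus strand, 1 of 2 listed) held an NRF1 match 28 bases after the listed start. The Atp5g2 promoter (chr15:102670998-102671297, minus strand) held one 41 bases before the start and CACGT, the reverse complement of ACGTG, at 240. The Atp5g3 promoter (chr2:73911277-73911576, minus strand) held one 14 bases after the listed start and the ACGTG palindrome at 238. The Atp5g1 promoter (chr11:96075582-96075881, minus strand) held no NRF1 match but had ACGTG 86 bases before the start and its palindrome at 44. The listed starts of Atp5g3 and Atp5g1 lie 1138 and 63 bases inside the outer bounds of those genes in RefSeq.
Atp5c1: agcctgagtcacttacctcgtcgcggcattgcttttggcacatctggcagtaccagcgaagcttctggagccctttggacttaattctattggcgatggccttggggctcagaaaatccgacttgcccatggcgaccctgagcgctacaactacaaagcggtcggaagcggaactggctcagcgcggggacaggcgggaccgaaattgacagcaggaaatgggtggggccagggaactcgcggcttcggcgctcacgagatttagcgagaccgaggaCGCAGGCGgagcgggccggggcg
Atp5g1: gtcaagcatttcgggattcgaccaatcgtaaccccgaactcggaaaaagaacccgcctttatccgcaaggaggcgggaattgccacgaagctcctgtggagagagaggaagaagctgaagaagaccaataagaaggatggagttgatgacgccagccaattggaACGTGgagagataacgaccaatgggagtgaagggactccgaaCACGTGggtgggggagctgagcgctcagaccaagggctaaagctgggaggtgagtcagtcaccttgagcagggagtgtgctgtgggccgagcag
Atp5g2: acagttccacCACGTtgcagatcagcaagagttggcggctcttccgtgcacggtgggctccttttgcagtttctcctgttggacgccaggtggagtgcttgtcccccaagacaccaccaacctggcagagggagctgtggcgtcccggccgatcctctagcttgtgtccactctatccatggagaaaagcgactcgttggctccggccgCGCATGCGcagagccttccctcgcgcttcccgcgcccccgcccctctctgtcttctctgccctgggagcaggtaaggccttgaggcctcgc
Atp5g3: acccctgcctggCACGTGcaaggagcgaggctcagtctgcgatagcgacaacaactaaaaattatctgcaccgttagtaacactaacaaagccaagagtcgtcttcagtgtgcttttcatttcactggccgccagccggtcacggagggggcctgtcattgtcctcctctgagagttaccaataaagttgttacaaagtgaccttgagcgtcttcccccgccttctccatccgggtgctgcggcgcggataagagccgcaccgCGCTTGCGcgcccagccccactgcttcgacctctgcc

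RefSeq promoters were at hand for 69 of the 82 tested members. A gene was counted as holding a motif if any promoter listed for it had a match. Of the 69 members, 37.7% held CGCANGCG on either strand, against 17.6% of the 11839 tested genes with a promoter. Among genes with a promoter, the motif was in 10 of 16 of complex V and 10 of 32 of complex I. It was in 3 of 5 of complex III, 2 of 3 of complex II and 1 of 13 of complex IV. The 26 members with a match had a median log2 fold change of -0.31, and the 43 without one had a median of -0.24, while over all tested genes these medians were -0.01 and 0.01. Matches to AAGATGGC, the motif of YY1, were in 15.9% of these members and 4.73% of tested genes with a promoter. All members with a match were in complexes I and V, with 7 and 4. Members with and without the YY1 motif had medians of -0.28 and -0.25. Matches to CCGGAAG, which ETS factors such as GABPA bind, were in 23.2% of these members and 18.1% of tested genes with a promoter. Members with and without it had medians of -0.23 and -0.28. The HIF core ACGTG was in 26.1% of these members and 28.1% of tested genes with a promoter, and in 8 of 16 genes of complex V. The 18 members with it had a median log2 fold change of -0.38, against -0.24 for the 51 without. All tested genes had -0.01 with it and 0.01 without. Complex V, whose median was -0.39, held 8 of these 18 members and 10 of the 26 with an NRF1 match. Atp5s and Atp5sl, counted in complex V by name alone, were among the 8. Atp5sl was also among its 10 genes with an NRF1 match and its 4 with a YY1 match. No contrast was made within a complex, and the part of complex in these motif contrasts was not tested. These counts rest on letters in windows of fixed size and say nothing of binding.

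The levels of subunits of 1 complex were far from equal per length of transcript. In CPM per kilobase, averaged over all libraries, complex V ran from 4.55 for Atp5s to 1145 for Atp5b, and complex IV from 1.99 for Cox7b2 to 441 for Cox7c. Complex I ran from 16.7 for Ndufs4 to 149 for Ndufa7, complex II from 25.4 for Sdhc to 87.0 for Sdha, and complex III from 33.6 for Uqcrb to 163 for Uqcrc1. The median was 46.7 in complex I, 66.4 in complex II, 87.0 in complex III, 138 in complex IV and 117 in complex V, and the ranges overlapped widely. These values rest on 1 GENCODE transcript per gene, so a gene with another main transcript in these cells would shift.

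Among genes that help build the complexes, medians ran from -0.23 to -0.06. At an adjusted p below 0.05 edgeR called 0 of them, against 1.43% of all tested genes. The 14 tested assembly factors of complex I had a median of -0.18, against -0.17 for its subunits, and the 22 of complex IV had one of -0.06. Below 0 were 10 of the 14 and 13 of the 22, against 49.5% of all tested genes. Both knockdown libraries lay below both control libraries in 6 of the 14 and 3 of the 22, against 24.6% of all tested genes. They lay above in 3 of the 14 and 6 of the 22, against 27.3%. In complex IV the values ran from -0.79 for Cox17 to 2.06 for Cox20, scarce at 2.80 CPM or less. The medians were -0.15 over 4 genes for complex II, -0.13 over 6 for complex III and -0.23 over 4 for complex V. Acad9, a complex I assembly factor, was at 77.3 and 90.5 CPM in the knockdown libraries and 79.3 and 71.0 CPM in the control libraries. Lrpprc, which stabilises mitochondrial mRNAs and is needed for complex IV, was at 203 and 189 CPM in the knockdown libraries and 219 and 209 CPM in the control libraries. Atpif1, the inhibitor of the ATP synthase, was at 69.6 and 67.5 CPM in the knockdown libraries and 102 and 73.1 CPM in the control libraries. No test compared assembly factors with subunits.

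Cycs, which encodes cytochrome c, was at 112 and 111 CPM in the knockdown libraries and 131 and 147 CPM in the control libraries. The 16 tested carrier and ubiquinone synthesis genes had a median of -0.19 with 0 called, against 1.43% of all tested genes. The 11 tested transcriptional regulators of mitochondrial biogenesis had a median of -0.11, with 10 below 0, against 49.5% of all tested genes. Some of the 10 were barely below it, such as Tfb2m at -0.001 and Gabpb1 at -0.01. Of these regulators 0 were called, against 1.43% of all tested genes. Both knockdown libraries lay below both control libraries in 4 of the 11, against 24.6% of all tested genes. They lay above in 1, Yy1, against 27.3%. Yy1, added after its values were seen, was at 108 and 117 CPM in the knockdown libraries and 91.9 and 87.0 CPM in the control libraries. Its log2 fold change was 0.33 (standard error 0.17). At an unadjusted edgeR p below 0.05, Tfam (-0.53) and Ppargc1b (-1.38) were lower, against 8.58% of all tested genes, and 0 were higher, against 11.0%. Pprc1, a coactivator gene, was at 303 and 258 CPM in the knockdown libraries and 354 and 250 CPM in the control libraries. Gabpa, an ETS factor gene whose exons overlap those of Atp5j on the other strand, was at 149 and 175 CPM in the knockdown libraries and 177 and 200 CPM in the control libraries. Nrf1, added for its motif after its values were seen, was at 97.1 and 79.6 CPM in the knockdown libraries and 102 and 86.0 CPM in the control libraries, so the groups overlapped.

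Of the 13 subunit mRNAs of the mitochondrial genome, 12 had a value below 0, against 49.5% of all tested genes. Their median was -0.25, but the control libraries differed widely for complexes III and IV. COX1, COX2 and COX3 of complex IV summed to 2467 and 2961 CPM in the knockdown libraries, against 2693 and 6186 CPM in the control libraries. CYTB of complex III was at 414 and 501 CPM in the knockdown libraries and 468 and 1020 CPM in the control libraries. In both, control replicate 2 alone stood high, whereas the nuclear members of complexes III and IV were higher in control replicate 1 for 7 of 9 and 11 of 16 genes. The 7 mitochondrial complex I mRNAs summed to 2470 and 3027 CPM in the knockdown libraries and 3027 and 3000 CPM in the control libraries. Poly(A) selection measures mitochondrial mRNAs through their short tails, and none was called, against 1.43% of all tested genes.

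**Figure D5:**
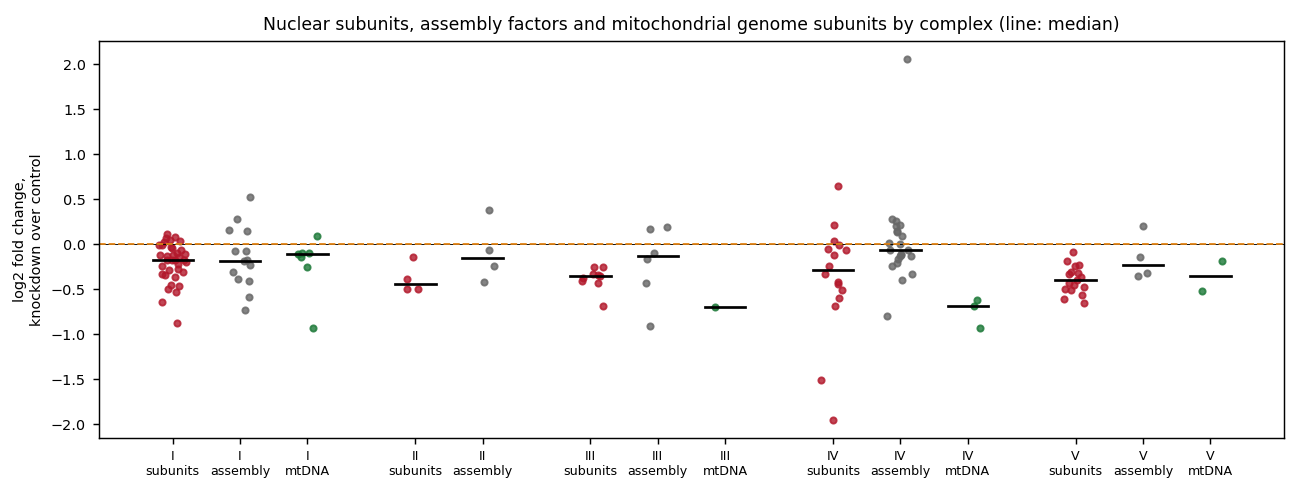
Log2 fold change (knockdown over control) of tested nuclear subunit genes, assembly factor genes and mitochondrial genome (mtDNA) subunit genes of each complex, with a line at the median of each group. For complex IV the median is -0.28 for nuclear subunits, -0.06 for assembly factors and -0.68 for the mtDNA subunits.

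A list of hypoxia-inducible genes linked to mitochondria had 8 tested genes, not all of which encode mitochondrial proteins. All 8 had both knockdown libraries below both control libraries, against 24.6% of all tested genes. Of them, 2 were called lower by edgeR at an adjusted p below 0.05, Ndufa4l2 and Bnip3, against 0.555% of all tested genes, and the median log2 fold change was -0.87. Ndufa4l2, a relative of the complex IV subunit gene Ndufa4 and no member by the rule, was at 1.41 and 2.19 CPM in the knockdown libraries and 20.4 and 24.4 CPM in the control libraries. Bnip3, a mitophagy receptor gene, was at 20.1 and 19.4 CPM in the knockdown libraries and 103 and 144 CPM in the control libraries. Cox4i2 is both in this list and a member. Ndufa4 itself had a log2 fold change of 0.04 (standard error 0.18).

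Counts of some members are uncertain. Exons of 29 of the 86 members overlapped exons of another gene in GENCODE M21, mostly on the opposite strand, among them Atp5a1 with Haus1, Cox4i1 with Emc8 and Ndufs1 with Eef1b2. The strand setting of the counting was not given, so reads of such pairs may be shared. Many respiratory chain genes also have processed pseudogenes elsewhere in the genome, and how reads that map to several places were treated was not given. The pseudogene row Atp5c1-ps held 0 and 1 counts in the knockdown libraries and 0 and 0 in the control libraries.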

How the data were processed

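For 4 mRNA-seq libraries the authors deposited a table of whole-number counts per gene. Cutadapt, HISAT2, featureCounts and build mm10 are named in the submitters' processing notes. Their versions, the annotation, the strand setting and the handling of multi-mapped reads were not given in the sources used here. Of 36068 rows, 92 spike-in rows held 0 counts and were left out, and 27 rows had symbols turned into dates.

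The filterByExpr rule (edgeR 4.0.16, R 4.3.3) passed 16209 genes, among them 82 of 86 members, and libraries were scaled by TMM. Groups were compared by edgeR's quasi-likelihood test with Benjamini-Hochberg adjustment over all tested genes, called below 0.05. A standard error is the absolute log2 fold change over the root of the F statistic. With these depths the number of libraries limits precision more than counting error. Alternatives were other scalings and filters, DESeq2 1.42.0, limma-voom (limma 3.58.1), a replicate block, each library left out, thinning and a length and GC correction. The procedure was tested on simulated data.

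Values in every library are given for the 3 highest and 3 lowest log2 fold changes of each complex, a chosen set of catalytic genes (in complex I, Ndufs1 and Ndufv1) and isoforms, and, from each other list, called members or the most abundant ones. Members, lists and rules were chosen with earlier results of these data known. Lengths come from GENCODE M21 and positions and promoters from RefSeq GRCm38.p6, the build of mm10, in which 83 members matched by symbol and 3 by synonym. A single member that entered the fits and counts is not reported here by name.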

Additional observations from a re-analysis of the deposited data

How the results depend on the processing

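The median log2 fold change of each of the 5 complexes stayed below 0 under every alternative run. With 1 library left out it ranged from -0.33 to -0.050 for complex I, from -0.45 to -0.39 for complex II, from -0.58 to -0.20 for complex III, from -0.49 to -0.18 for complex IV and from -0.52 to -0.23 for complex V. The complex II median was -0.47 with upper-quartile scaling, -0.39 with total counts only and -0.29 as the ratio of summed CPM, since Sdha is its most abundant member. After the length and GC correction complex I was at -0.052 and complex II at -0.34.

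The count of called members, 0, was 5 with DESeq2, 5 with no filter on low counts (Atp5c1, Cox4i2, Cox7a1, Cox7b and Ndufb4, beside 2.72% of all genes called lower) and 0 to 1 with 1 library left out. Over all genes 232 were called, against 1107 with DESeq2, 1717 with no filter and 153 to 587 with 1 library left out. The replicate block gave 656 genes, 4.05% of those tested, and 0 members. Same-numbered libraries did not deviate together (correlation -0.0587), and the labels do not tie the numbers to a batch, so they share only a number.

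Of 44 named members, 12 changed sign under some alternative. With 1 library left out the ranges were -0.26 to 0.046 for Atp5l, -0.28 to 0.15 for Cox4i1, -0.18 to 0.044 for Cox5b, -0.26 to 0.23 for Cox6a1, -0.46 to 0.25 for Cox8a, -0.43 to 0.066 for Ndufv1, -0.59 to 0.11 for Uqcrc1, -1.24 to 0.18 for Uqcrb, -0.26 to 3.03 for Cox7b2, -0.10 to 0.20 for Ndufa10, -0.13 to 0.19 for Ndufa4 and -0.036 to 0.25 for Ndufb9. With total counts only, Cox4i1 was at 0.00055 and Cox6a1 at 0.049. Cox6a1 was at 0.0041 with a minimum of 1 CPM in 2 libraries, 0.0091 with limma-voom and 0.0091 with the replicate block. After the length and GC correction Atp5l was at 0.024, Cox4i1 at 0.084, Cox5b at 0.038, Cox6a1 at 0.12 and Cox8a at 0.017. The cause of these changes was not tested. Members under about 2 CPM, Cox4i2 and Cox7b2, are limited by depth.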
